A study of Rattus norvegicus with 172 samples.

Results

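Regulators of G protein signalling (RGS) are described here across 4 rat models of epilepsy in dentate granule cells, the neurons that pass cortical input on to the hippocampus. The set holds 10 genes, Rgs2, Rgs4, Rgs5, Rgs7, Rgs8, Rgs9, Rgs10, Rgs12, Rgs14 and Rgs16, chosen by name. Each gene is represented by the array probe set that carries its symbol alone and is brightest on average. Of the 10 genes, 9 passed the filter on low signal and are among the 10761 genes tested. Rgs5 did not pass, and its signals are given as values.

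RNA of granule cells cut by laser from 10 µm hippocampal sections was measured on 172 Affymetrix arrays, 1 or 2 for each of 164 male Sprague-Dawley rats weighing 175 to 250 g. Pilocarpine, an agonist of muscarinic receptors, was given at 300 to 350 mg/kg after methylscopolamine in laboratories A and B (48 rats), and pentobarbital stopped the status epilepticus (SE) after 90 min. Kainate, an agonist of glutamate receptors, was given hourly at 5 mg/kg until SE in laboratories A and B (48 rats). In kainate laboratory A, SE ended by itself after 6 to 8 h, whereas kainate laboratory B began with 7.5 mg/kg and stopped SE after 90 min. Controls of both drug models received saline. Self-sustaining status epilepticus (SSSE, 20 rats of 1 laboratory) and kindling (48 rats of laboratories A and B) rest on electrical stimulation, whose settings are not given in the sources used here. Rats of the SE models were killed at day 1, 3 or 10, kindled rats at stage 2, 4 or 5 of seizure severity, and each laboratory had its own controls. A group held 6 rats, except for SSSE, with 5 control, 5 day 3 and 4 day 10 rats.

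Heterotrimeric G proteins carry signals from receptors on the cell surface to enzymes and ion channels inside. RGS proteins speed the hydrolysis of GTP by the alpha subunit of these proteins and so shorten the signal. In neurons they set how long receptors for acetylcholine, glutamate, opioids, dopamine and neuropeptide Y act on potassium channels, calcium channels and adenylyl cyclase. Rgs2, Rgs4, Rgs5, Rgs8 and Rgs16 belong to the small R4 family, Rgs7 and Rgs9 to the R7 family, whose members are stable only in complex with the beta subunit Gnb5, and Rgs10, Rgs12 and Rgs14 to the R12 family.

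In RefSeq's GRCr8 annotation, 6 of the 10 genes lie on chromosome 13. Rgs4 and Rgs5 are neighbours there, as are Rgs8 and Rgs16, and Rgs2 lies beside Rgs13. All 10 genes had a promoter entry in the RefSeq table. The 250 bases before the start of Rgs4, Rgs2 and Rgs10 are printed because the results turn on these genes. They are given 5′ to 3′ on the gene's own strand, which is the minus strand for each, and capitals mark the motif matches found. Rgs4 lies at chr13:84475885-84476134, Rgs2 at chr13:58352667-58352916 and Rgs10 at chr1:192418078-192418327.
Rgs4: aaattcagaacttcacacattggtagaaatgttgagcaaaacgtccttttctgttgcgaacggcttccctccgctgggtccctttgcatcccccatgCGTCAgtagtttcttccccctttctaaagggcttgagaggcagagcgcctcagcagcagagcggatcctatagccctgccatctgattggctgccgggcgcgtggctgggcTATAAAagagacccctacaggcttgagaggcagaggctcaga
Rgs2: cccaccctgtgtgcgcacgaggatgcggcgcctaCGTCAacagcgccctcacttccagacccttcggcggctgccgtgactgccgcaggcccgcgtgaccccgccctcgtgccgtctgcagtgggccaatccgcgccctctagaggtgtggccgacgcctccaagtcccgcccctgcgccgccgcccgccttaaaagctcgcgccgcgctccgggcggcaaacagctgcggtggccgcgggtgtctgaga
Rgs10: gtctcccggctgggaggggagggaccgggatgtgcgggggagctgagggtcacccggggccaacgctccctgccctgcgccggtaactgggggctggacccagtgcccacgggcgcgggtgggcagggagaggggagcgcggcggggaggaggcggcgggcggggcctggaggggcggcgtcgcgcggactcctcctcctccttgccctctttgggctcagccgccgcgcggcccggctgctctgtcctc
Both strands were searched for the cAMP response element TGACGTCA, its core TGACG, the AP-1 motif TGANTCA, the STAT motif TTCNNNGAA, the EGR motif GCGNGGGCG and the TATA box TATAAA. The core lies within the full cAMP response element, so these searches overlap. Rgs4 held the core, read as CGTCA on the printed strand, 153 to 149 bases before the start, and a TATA box 42 to 37 bases before it. In the Rgs2 promoter the core stood 216 to 212 bases before the start, and the Rgs10 promoter held no match. Among all 27457 promoters of the same length, 18.8% held the core, 13.2% the TATA box, 6.41% the AP-1 motif, 4.51% the EGR motif, 7.57% the STAT motif and 1.68% the full cAMP response element. Among the other members, Rgs12 held an AP-1 match and Rgs7 an EGR match. G and C made up 54.4% of the Rgs4 window, 72.4% of the Rgs2 window and 77.6% of the Rgs10 window, with a median of 52% over all promoters.

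For 8 rats a repeat array was averaged with the first. Control rats 1 to 5 of pilocarpine laboratory A were 5 of the 8, and in these 5 the repeat array minus the first was -0.57 to -0.35 for Rgs2 and 0.09 to 0.55 for Rgs7 (log2), which moves the baseline of that laboratory. The change of Rgs2 at pilocarpine day 1 was 0.68 with first arrays only and 0.88 with repeat arrays only, called with each, and that of Rgs7 was 0.22 and 0.11, called with neither. The median signal of an array ran from 27.9 to 54.2. Rats 2 and 5 of pilocarpine laboratory A at day 10 correlated less with their group than the rest. The labels of 2 rats contradict themselves, rat 3 of the SSSE day 1 group and rat 4 of stage 2 in kindling laboratory A, and no call against controls changed without them. At day 3 or day 10, 4 rats stood over 0.9 on a score that is 0 for the mean control and 1 for the mean day 1 rat of the same laboratory, computed over all genes except the members, namely SSSE day 3 rat 4 and day 10 rats 1, 2 and 3 of pilocarpine laboratory B. The changes of Rgs4 at SSSE day 3, and of Rgs4 and Rgs10 at pilocarpine day 10, are given with and without these rats.

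Values below are the deposited signal, or changes on the scale log2(signal + 16), where the added 16 understates the change of dim probe sets. A gene is called higher or lower when its limma p-value, adjusted by Benjamini and Hochberg over all 10761 genes, is under 0.05. The error after ± is the standard error of the fit. Changes were averaged over the laboratories of a model with equal weight. At day 1, 4 of the 9 tested members were called after pilocarpine (2 higher, 2 lower), where 32.1% of all genes tested were called. After kainate 6 were called at day 1 (2 higher, 4 lower), where 41.6% of all genes were. In SSSE 3 were called at day 1 (1 higher, 2 lower), against 12.5% of all genes. These shares are high, so the number of members called is not by itself a result about RGS genes. The median change of the 9 members at day 1 was 0.11 after pilocarpine, 0.04 after kainate and -0.10 in SSSE, beside medians of 0.00, 0.02 and 0.00 over all genes.

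At later times of the SE models fewer members, and fewer of all genes, were called than at day 1. Counts out of 9 are here too not by themselves a result about RGS genes. After pilocarpine 1 of 9 was called at day 3 and 1 at day 10, where 11.7% and 8.93% of all genes were called. After kainate none was called at day 3 and 1 at day 10, against 7.96% and 6.28% of all genes, and 2 members had an unadjusted p under 0.05 at kainate day 3. In SSSE no member was called at day 3 or day 10, where 3.14% and 0.344% of all genes were called. In limma, 1 member had an unadjusted p under 0.05 at SSSE day 3 and 0 at SSSE day 10. In kindling limma called no member and 0% of all genes at stage 2 and stage 4, and 0 members had an unadjusted p under 0.05 there, against 523 and 504 of all genes. At stage 5, 2 of 9 members were called, against 7.1% of all genes. Day 10 minus day 3 called no member after pilocarpine (1.68% of all genes called), kainate (0.743%) or SSSE (0%), where limma gave 2, 1 and 0 members an unadjusted p under 0.05.

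Within laboratories, day 1 calls numbered 3 members in pilocarpine laboratory A and 2 in B, where 22.6% and 15.1% of all genes were called, and 5 in kainate laboratory A and 4 in B, against 21.6% and 32.6%. At pilocarpine day 10, laboratory A had 0 calls (0.753% of all genes) and laboratory B 2 (8.38%). No member was called at day 3 of either pilocarpine laboratory (4.72% of all genes in A, 3.62% in B), with Rgs2 in laboratory B passing in 3 other settings, or at day 3 and day 10 of kainate laboratory A (1.47% and 2.06%) and B (4.28% and 0.892%). At an unadjusted p under 0.05 these limma fits held 1 member at day 3 of each pilocarpine laboratory, 0 at day 10 of pilocarpine laboratory A, 0 at day 3 of each kainate laboratory and 2 at day 10 of each.

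**Figure D1:**
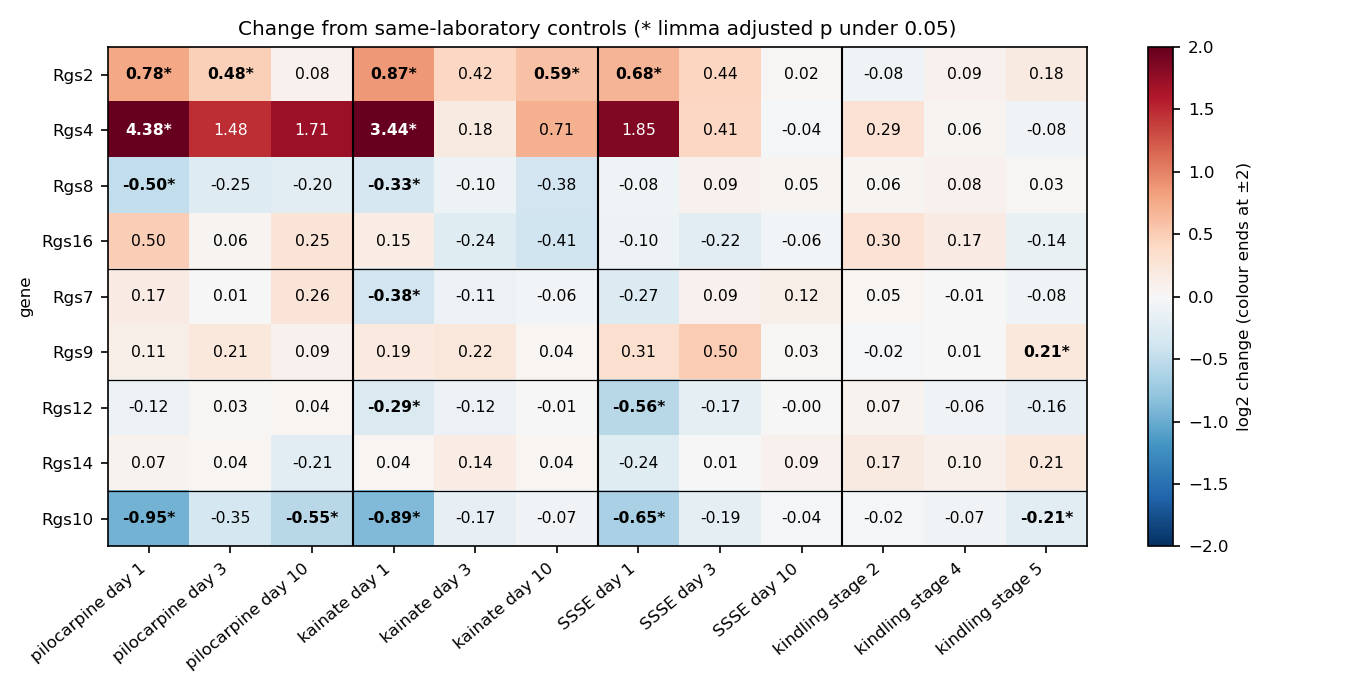
Change of the 9 tested RGS genes (down the page) in the 12 comparisons of a time or stage with same-laboratory controls (across), as log2 of signal + 16, written in each cell and coloured from -2 to 2, with an asterisk where limma's adjusted p was under 0.05. Rgs4 and Rgs2 are above 0 and Rgs10 below 0 at day 1 of all 3 SE models, and kindling stages 2 and 4 hold no asterisk.

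Rgs4, a brake on receptors coupled to Gi/o and Gq, rose most among the members. In pilocarpine laboratory A the Rgs4 signal ran from 1318 to 6674 with a median of 2785 in day 1 rats, against 54.5 to 533 with a median of 67.7 in controls. In pilocarpine laboratory B it ran from 89.1 to 3658 with a median of 2178 at day 1, against 25.5 to 103 with a median of 52.9 in controls. Of the 12 day 1 rats, 11 lay above every control of their laboratory, and rat 1 of laboratory B, at 89.1, lay inside the control range. The mean change was 4.38 ± 0.60, a 20.9-fold rise (adjusted p = 2.72e-07, n = 12 rats against 12). Laboratory A gave 4.56 ± 0.85 and laboratory B 4.21 ± 0.85, each called, and the change in A minus that in B was 0.34 ± 1.20 (adjusted p = 0.953).

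After kainate the separation was complete in both laboratories. Rgs4 signals in kainate laboratory A ran from 927 to 1752 (median 1325) at day 1, against 75.9 to 265 (median 172) in controls. In kainate laboratory B they ran from 1649 to 4015 (median 2349) at day 1, against 74.9 to 228 (median 145) in controls. All 12 day 1 rats lay above every control of their laboratory. The rise was 3.44 ± 0.31, or 10.9-fold (adjusted p = 2.31e-12, n = 12 against 12). It was 2.88 ± 0.44 in laboratory A, where SE ended by itself, and 4.01 ± 0.44 in laboratory B, where SE was stopped. The difference of A minus B, -1.13 ± 0.63, did not pass the test (adjusted p = 0.626, with 0.00929% of all genes called).

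In SSSE the Rgs4 signal split the day 1 rats. Rats 1 to 6 at day 1 had 601, 764, 86.5, 24.9, 2003 and 38.7, against 43.1, 36.8, 39.2, 171 and 30.8 in control rats 1 to 5. Rats 1, 2 and 5 stood above all controls, while rats 3, 4 and 6 did not. The change of 1.85 ± 0.98 did not pass limma's test (interval of 2 SE from -0.11 to 3.80, adjusted p = 0.213). The change after pilocarpine minus that in SSSE was 2.54 ± 0.86 (adjusted p = 0.0889), and the change after kainate minus that in SSSE was 1.60 ± 0.86 (adjusted p = 0.45). A difference between the models was not shown for Rgs4 at day 1, nor was equality.

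At day 3 and day 10 Rgs4 was lower than at day 1 in both drug models. The change at day 3 minus that at day 1 was -2.91 ± 0.60 after pilocarpine (adjusted p = 0.000435, with 23.2% of all genes called) and -3.26 ± 0.31 after kainate (adjusted p = 4.22e-11, with 31.1% called). Day 10 minus day 1 gave -2.68 ± 0.60 after pilocarpine (adjusted p = 0.00223, 15.9% called) and -2.73 ± 0.31 after kainate (adjusted p = 2.56e-09, 33% called). Against controls, day 3 gave 1.48 ± 0.60 after pilocarpine (adjusted p = 0.106) and 0.18 ± 0.31 after kainate (adjusted p = 0.839). The pilocarpine day 3 value of Rgs4 passed in the fit over all 28 groups, which share 1 estimate of the spread (adjusted p = 0.0158), and without the 4 rats near day 1 (adjusted p = 0.0294). Rgs4 signals at pilocarpine day 3 ran from 79.6 to 1853 in laboratory A and from 76.9 to 453 in laboratory B, and 7 of the 12 rats lay above all controls of their laboratory.

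At day 10 single rats had high Rgs4. In pilocarpine laboratory B, day 10 rats 1 to 6 had 2609, 4141, 3696, 125, 42.4 and 64.5, against 25.5 to 103 in controls. Rats 1, 2 and 3 thus reached the level of day 1, and the other 3 stood near the controls. The change in laboratory B was 2.98 ± 0.85 (adjusted p = 0.0214, with 8.38% of all genes called), and in laboratory A 0.44 ± 0.85 (adjusted p = 0.871). For A minus B the difference of -2.53 ± 1.20 did not pass the test (adjusted p = 0.375). On the score without the members, rats 1, 2 and 3 stood at 1.03, 1.01 and 1, and rats 4, 5 and 6 at 0.44, 0.329 and 0.275. Without rats 1, 2 and 3 the Rgs4 change in laboratory B was 0.33 (adjusted p = 0.941). It lost its call without rat 1 (2.52, adjusted p = 0.0832), without rat 2 (2.39, adjusted p = 0.109) and without rat 3 (2.42, adjusted p = 0.101), and when laboratory B was fitted alone (adjusted p = 0.056). Over both laboratories the change of Rgs4 at day 10 was 1.71 ± 0.60 (adjusted p = 0.0646), and leaving out control rat 1 or day 10 rat 2 of laboratory A, or day 10 rat 4, 5 or 6 of laboratory B, brought it under the threshold (adjusted p from 0.0194 to 0.0407), as did the fit over all 28 groups (adjusted p = 0.00527). Without day 10 rats 1, 2 and 3 of laboratory B, the change over both laboratories was 0.38 (adjusted p = 0.805).

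Kainate day 10 rats 1 to 6 had Rgs4 signals of 189, 104, 183, 1396, 290 and 223 in laboratory A, against 75.9 to 265 in controls. Laboratory B had 66.4, 868, 164, 214, 696 and 124, against 74.9 to 228 in controls. Rats 4 and 5 of laboratory A and rats 2 and 5 of laboratory B exceeded their controls. The mean change of 0.71 ± 0.31 did not pass the test (adjusted p = 0.187). In SSSE the day 3 rats 2 to 6 had 30.7, 40.9, 1469, 17.3 and 31.1, so that rat 4 alone stood above the controls, and its score was 1.1. In SSSE the change of Rgs4 at day 3 was 0.41 ± 1.02 (adjusted p = 0.873) and -0.60 without rat 4 (adjusted p = 0.81). Kindled rats gave changes of 0.29 ± 0.29, 0.06 ± 0.29 and -0.08 ± 0.29 at stages 2, 4 and 5, none called.

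**Figure D2:**
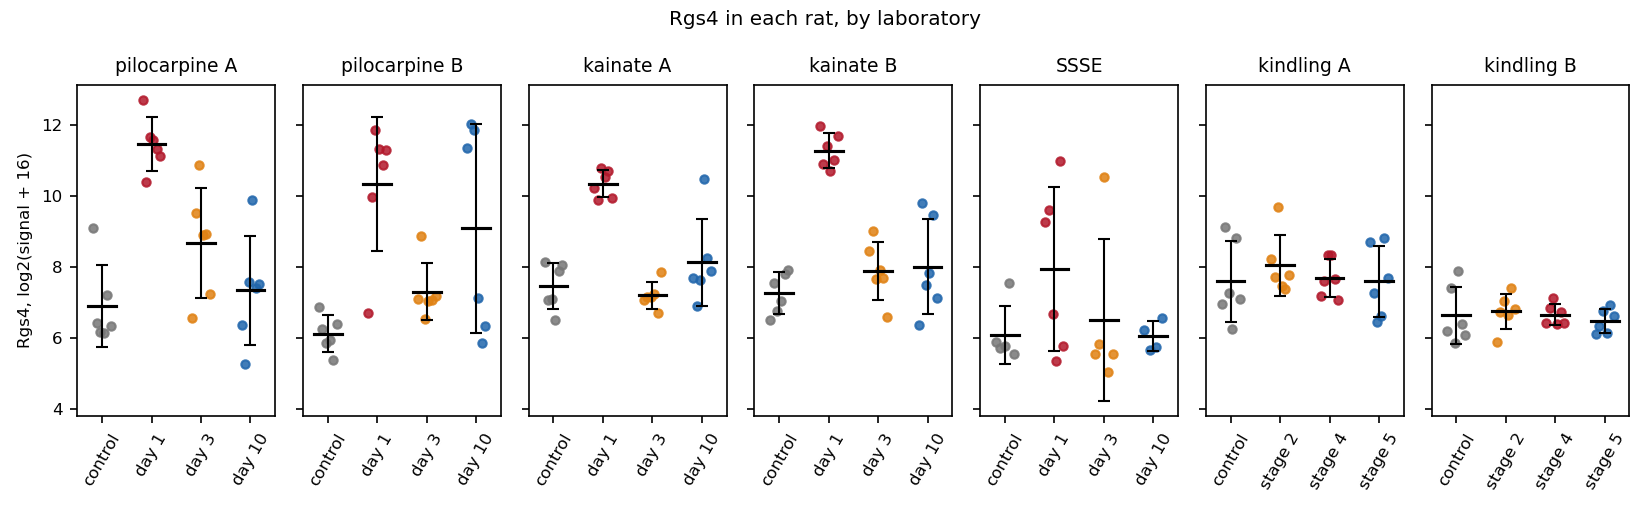
Rgs4 level in each rat, as log2 of signal + 16, in the 7 laboratories (panels), with controls and the 3 times or stages in order along each panel. Points are rats, bars the group mean and error bars the SD. Day 1 rats of both kainate laboratories lie above all controls, and 3 of the 6 day 10 rats of pilocarpine laboratory B lie at the level of day 1.

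A dimmer Rgs4 probe set followed the same course, with a correlation of 0.95 with the first over the 164 rats. It gave rises of 3.21 ± 0.44 at pilocarpine day 1 (adjusted p = 2.3e-07) and 2.83 ± 0.26 at kainate day 1 (adjusted p = 4.48e-12), and 1.91 ± 0.83 in SSSE (adjusted p = 0.129). By that probe set the change at pilocarpine day 10 was 1.31 (adjusted p = 0.0491), with 2.14 in laboratory B (adjusted p = 0.0228), which holds the 3 rats with high Rgs4, and 0.48 in laboratory A (adjusted p = 0.787).

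Rgs2, which acts mainly on Gq and is known as an activity-induced gene in the rat brain, rose at day 1 in all 3 SE models. In pilocarpine laboratory A the Rgs2 signal ran from 422 to 949 (median 740) at day 1, against 239 to 430 (median 345) in controls. In pilocarpine laboratory B it ran from 314 to 710 (median 499) at day 1, against 279 to 351 (median 320) in controls. Of the 12 day 1 rats, 10 lay above every control of their laboratory. The rise was 0.78 ± 0.15, or 1.72-fold (adjusted p = 7.96e-05). Within laboratories, A gave 0.96 ± 0.21 (adjusted p = 0.000906) and B 0.59 ± 0.21, which did not pass by itself (adjusted p = 0.0525). Laboratory B passed without any 1 of control rat 6 and day 10 rats 1, 2 and 5 of laboratory A and day 10 rat 2 of laboratory B, which enter only the estimate of the spread (adjusted p from 0.0431 to 0.0499). It also passed with the rat number as a replicate block (adjusted p = 0.0289), in the fit over all 28 groups (adjusted p = 0.019), without the 2 rats that stood apart (adjusted p = 0.0371) and in 5 further settings (adjusted p from 0.0401 to 0.05).

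Kainate separated all 12 day 1 rats from their controls in Rgs2. Signals in laboratory A ran from 581 to 946 (median 663) at day 1, against 280 to 398 (median 390.2) in controls. In laboratory B they ran from 439 to 832 (median 560.3) at day 1, against 254 to 381 (median 332) in controls. The rise was 0.87 ± 0.17, or 1.83-fold (adjusted p = 6.45e-05), with 0.90 ± 0.25 in laboratory A and 0.85 ± 0.25 in laboratory B, each called. In SSSE, day 1 rats 1 to 6 had 697, 842, 652, 717, 1374 and 485, against 486, 499, 419.6, 444 and 479 in controls. Rat 6 alone lay within the range of the controls. The SSSE rise of Rgs2 was 0.68 ± 0.18, or 1.6-fold (adjusted p = 0.0217), and it missed the threshold without control rat 3 (0.64, adjusted p = 0.0529) or day 1 rat 2 (0.65, adjusted p = 0.0508). The size of the rise did not pass a test of difference between models, with pilocarpine minus kainate at -0.10 ± 0.20 (interval of 2 SE from -0.50 to 0.31), pilocarpine minus SSSE at 0.10 ± 0.26 (interval from -0.42 to 0.61) and kainate minus SSSE at 0.19 ± 0.26 (interval from -0.32 to 0.71).

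Rgs2 was also called at later times. At pilocarpine day 3 it was 0.48 ± 0.15 (adjusted p = 0.0291), and 9 of 12 rats lay above all controls of their laboratory. That call was lost without control rat 6 of laboratory A (0.43, adjusted p = 0.0574) and with first arrays only (0.38, adjusted p = 0.0946). In laboratory B alone the day 3 change of Rgs2 was 0.68 ± 0.21 and did not pass (adjusted p = 0.0639), but was called with the replicate block (adjusted p = 0.0329), in the fit over all 28 groups (adjusted p = 0.0152) and without the 2 rats that stood apart (adjusted p = 0.0423). At kainate day 3 the change of 0.42 ± 0.17 missed the threshold (adjusted p = 0.15), although 11 of 12 rats lay above all controls. In SSSE all 5 day 3 rats, with 532, 633, 927, 548 and 599.9, lay above the 5 controls, and the change of 0.44 ± 0.19 did not pass (adjusted p = 0.222). At pilocarpine day 10 Rgs2 stood at 0.08 ± 0.15 and at SSSE day 10 at 0.02 ± 0.20, neither called. Day 10 minus day 1 after pilocarpine was -0.69 ± 0.15 (adjusted p = 0.00172), and day 3 minus day 1 after kainate -0.46 ± 0.17 (adjusted p = 0.0416).

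At kainate day 10 the Rgs2 change rested on few rats. In laboratory A, day 10 rats 1 to 6 had Rgs2 signals of 397, 406, 883, 1248, 361 and 447, against 280 to 398 in controls. In laboratory B they had 402, 1010.5, 287, 346, 1066 and 305, against 254 to 381 in controls. Rats 3 and 4 of laboratory A and rats 2 and 5 of laboratory B stood apart from the others. The change of Rgs2 at kainate day 10 was 0.59 ± 0.17 (adjusted p = 0.033), and it lost its call without any 1 of 8 rats. These were control rats 3 and 6 and day 10 rats 3 and 4 of laboratory A, and control rats 1 and 5 and day 10 rats 2 and 5 of laboratory B (changes from 0.47 to 0.57, adjusted p from 0.0505 to 0.0868). The 4 high rats had scores of 0.637 and 0.378 in laboratory A and 0.405 and 0.442 in laboratory B on the day 1 scale described above. A dimmer Rgs2 probe set, with a correlation of 0.645 with the first over 164 rats, rose by 0.49 ± 0.18 at pilocarpine day 1 (adjusted p = 0.0352) and 0.69 ± 0.21 at kainate day 1 (adjusted p = 0.00595), and gave 0.86 ± 0.29 in SSSE (adjusted p = 0.0553) and 0.41 at kainate day 10 (adjusted p = 0.259).

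Kindled rats showed no call for Rgs2. At stage 5 the Rgs2 signal ran from 414 to 621 (median 479) in laboratory A, against 347 to 439 (median 405) in controls. Laboratory B had 346 to 657 (median 457) at stage 5, against 418 to 522 (median 450.2) in controls. The ranges overlapped in both laboratories, and the change of 0.18 ± 0.09 did not pass (adjusted p = 0.223).

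The other 3 genes of the R4 family had low signals. Rgs8, a regulator best known from Purkinje cells, fell at day 1 after pilocarpine and after kainate. Its signal at pilocarpine day 1 ran from 17.7 to 30.2 in laboratory A, against 20.4 to 53.2 in controls, and from 5.41 to 32.4 in laboratory B, against 9.22 to 50.9 in controls. The ranges overlapped in both, with 3 of 12 day 1 rats below all controls, and the change was -0.50 ± 0.14 (adjusted p = 0.00655). At kainate day 1 it ran from 17.1 to 37.3 in laboratory A, against 32.1 to 58 in controls, and from 19 to 68.1 in laboratory B, against 36.2 to 42.8 in controls. Here 10 of 12 rats lay below all controls, rat 3 of laboratory B had the highest signal of either group, and the change of Rgs8 was -0.33 ± 0.13 (adjusted p = 0.0354). The kainate call was lost without control rat 1 of laboratory A (-0.29, adjusted p = 0.0682), with 1 in place of 16 added to the signal (-0.49, adjusted p = 0.0909) and after quantile normalization (-0.28, adjusted p = 0.0648). At kainate day 10 Rgs8 stood at -0.38 ± 0.13 (adjusted p = 0.0643), and it passed without day 10 rat 2 of laboratory A or without day 10 rat 1, 3 or 6 of laboratory B (adjusted p from 0.0294 to 0.045).

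Rgs16, an inducible regulator of Gi and Gq signalling, was called in no comparison with controls. At pilocarpine day 1 it stood at 0.50 ± 0.21 (adjusted p = 0.0636), with signals of 35.6 to 126 in laboratory A against 11 to 85.5 in controls, and 23.4 to 60.4 in laboratory B against 7.15 to 59.3 in controls. Rgs16 passed there in 5 of 13 other settings, among them the fit over all 28 groups, and without control rat 1 or day 10 rat 4 of laboratory A or control rat 1 or 2 of laboratory B (adjusted p from 0.0217 to 0.0417). After kainate the change was 0.15 ± 0.15 at day 1 and -0.41 ± 0.15 at day 10 (adjusted p = 0.099). Rgs16 fell between those days, with day 10 minus day 1 at -0.55 ± 0.15 (adjusted p = 0.00371) and day 3 minus day 1 at -0.39 ± 0.15 (adjusted p = 0.0437).

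Rgs5, known as a marker of pericytes, exceeded the array's median signal in 4 of 164 rats. Its group medians ran from 7.34 to 27.9, and without the filter its changes in the 12 comparisons ran from -0.10 to 0.19 with none called by limma. Of 12 pericyte and smooth muscle markers, 4 did not pass the filter either, with control medians of 6.55 for Pdgfrb, 8.41 for Kcnj8, 10.7 for Cspg4 and 5.97 for Cnn1. The 8 that passed had control medians from 2.19 for Tagln to 26.9 for Acta2, and exceeded the array's median in 12 to 62 of 164 rats. Of these 8, 4 rose and 0 fell at pilocarpine day 3, where 7.74% of all genes were called higher and 3.92% lower. The median over the 8 was 0.35. At pilocarpine day 1, 1 rose and 1 fell, where 15.8% of all genes were called higher and 16.3% lower. Markers this dim may have passed the filter through groups where they were high, which would tilt these counts and the median upward. Summed over the 12 markers, the signal ran from 107 to 507 in single rats of all groups. No change of Rgs5 was detected, with standard errors from 0.09 to 0.17 in the 12 comparisons. Its low signal limits what could be seen.

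Rgs10, a small regulator of Gi expressed in neurons and in microglia, fell at day 1 in all 3 SE models. In pilocarpine laboratory A the Rgs10 signal ran from 1440 to 2785 (median 2212) at day 1, against 2743 to 5319 (median 4036) in controls. In pilocarpine laboratory B it ran from 1233 to 2513 (median 2093) at day 1, against 3212 to 4281 (median 3783) in controls. Of the 12 day 1 rats, 11 lay below every control of their laboratory. Rgs10 fell by 0.95 ± 0.17, or 1.93-fold (adjusted p = 2.61e-05), with -0.92 ± 0.24 in laboratory A and -0.98 ± 0.24 in laboratory B, each called. In samples of captured tissue, fewer cells of a type and less RNA per cell cannot be told apart.

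After kainate the groups did not overlap in Rgs10. Laboratory A ran from 1098 to 1934 (median 1639.8) at day 1, against 2629 to 3108 (median 2824) in controls. Laboratory B ran from 1069 to 2502 (median 2181) at day 1, against 3096 to 4521 (median 3509) in controls. The gene fell by 0.89 ± 0.10, or 1.85-fold (adjusted p = 1.3e-09), with -0.83 ± 0.15 in laboratory A and -0.94 ± 0.15 in laboratory B, each called. In SSSE, day 1 rats 1 to 6 had 1159.5, 1115, 1660.4, 1872, 1462 and 2164, against 1990.1, 2747, 2850.4, 2160.0 and 2436 in controls. Rat 6 alone lay within the control range. The SSSE change was -0.65 ± 0.19 (adjusted p = 0.0297). Leaving out control rat 2, 3 or 5 or day 1 rat 1, 2 or 5 took it over the threshold (changes from -0.56 to -0.65, adjusted p from 0.0536 to 0.0735).

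Rgs10 was higher again at day 3. Day 3 minus day 1 was 0.72 ± 0.10 after kainate (adjusted p = 4.22e-07) and 0.60 ± 0.17 after pilocarpine (adjusted p = 0.00847), and day 10 minus day 1 after kainate was 0.82 ± 0.10 (adjusted p = 2.13e-08). At pilocarpine day 10 the change from controls was -0.55 ± 0.17 (adjusted p = 0.0338). In laboratory B, day 10 rats 1 to 6 had 1412, 1016, 1056, 3617, 3712 and 3094, against 3212 to 4281 in controls. Rats 1, 2 and 3, those with high Rgs4, were the low ones, and without them the change over both laboratories was -0.15 (adjusted p = 0.689). The pilocarpine day 10 call for Rgs10 was also lost without control rat 3, 5 or 6 or day 10 rat 3 or 4 of laboratory A, or control rat 3 or 5 or day 10 rat 1, 2 or 3 of laboratory B (adjusted p from 0.0504 to 0.0906).

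At kindling stage 5 Rgs10 fell by 0.21 ± 0.06 (adjusted p = 0.0311). Its signal ran from 2038 to 2533 (median 2282) at stage 5 in laboratory A, against 2214 to 2861 (median 2698) in controls. In laboratory B it ran from 1819 to 3041 (median 2621) at stage 5, against 2647 to 3360.2 (median 2881) in controls. The ranges overlapped, with 5 of 12 stage 5 rats below all controls, and each laboratory gave -0.21 ± 0.09. The call was lost in the fit over all 28 groups (adjusted p = 0.643). It was also lost without any 1 of control rats 1 and 3 and stage 5 rats 3 and 4 of laboratory A, or control rat 1 and stage 5 rats 1 and 4 of laboratory B (changes from -0.16 to -0.20, adjusted p from 0.0524 to 0.0752).

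**Figure D3:**
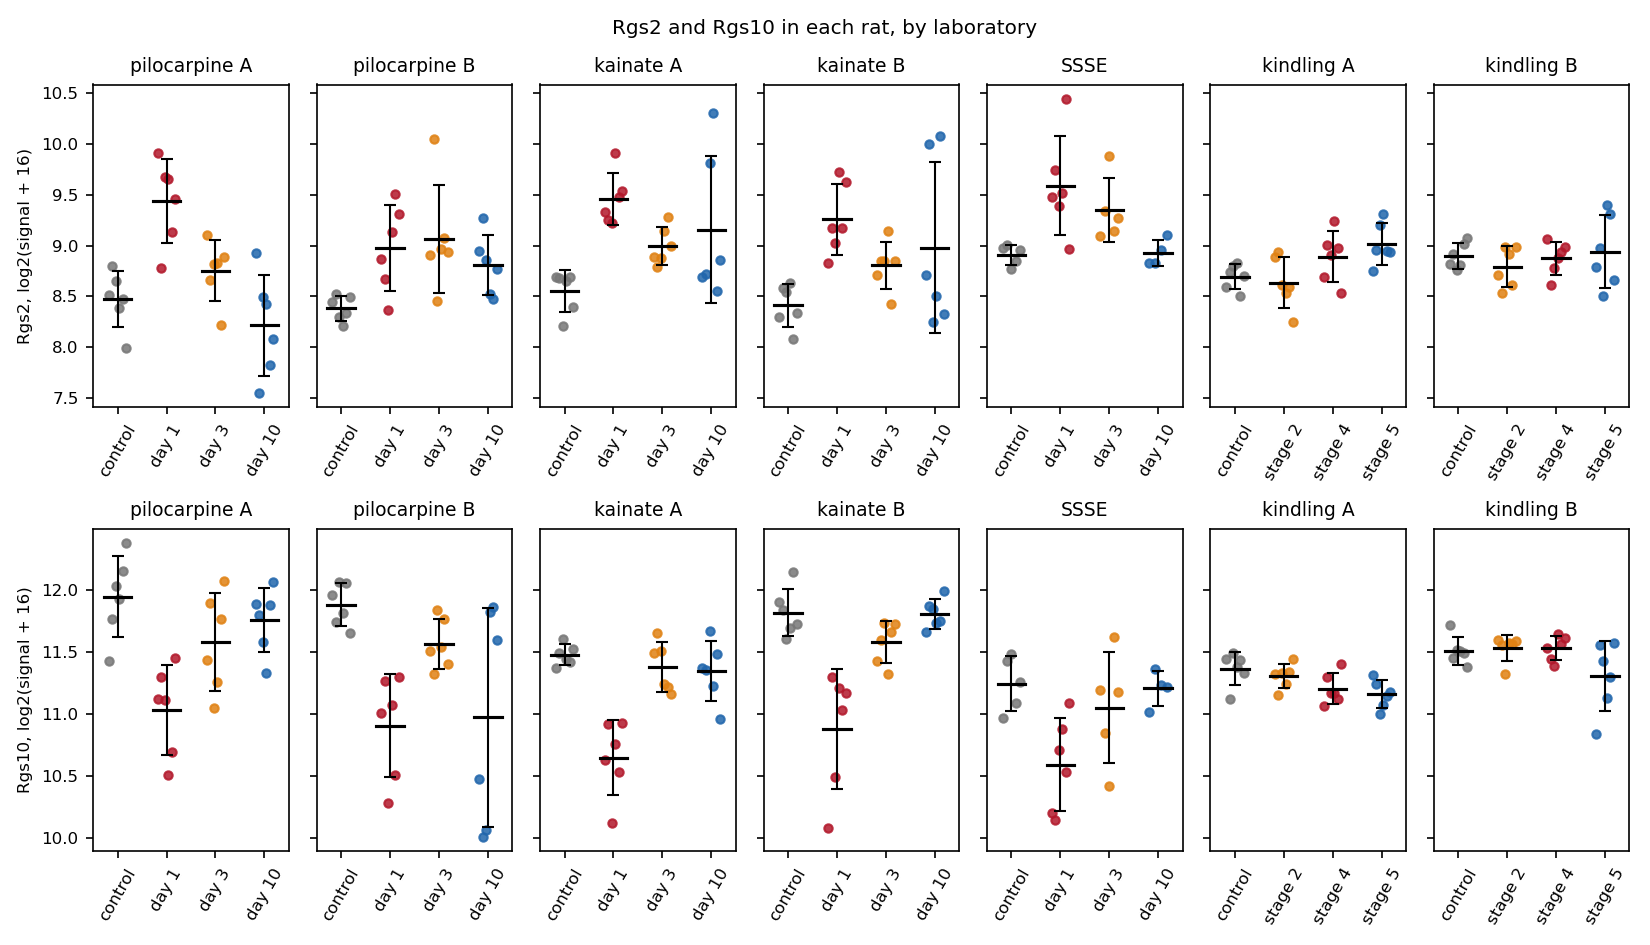
Rgs2 and Rgs10 level in each rat, as log2 of signal + 16, in the 7 laboratories, with controls and the 3 times or stages in order along each panel. Points are rats, bars the group mean and error bars the SD. At kainate day 1 all 12 rats lie above their controls in Rgs2 and below them in Rgs10.

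Rgs7, which with Gnb5 regulates Gi/o signalling to potassium channels, changed differently in the kainate and pilocarpine models at day 1. Laboratories A and B of pilocarpine are not those of kainate, so drug and laboratory cannot be told apart in this difference. In kainate laboratory A the Rgs7 signal ran from 1063 to 1313 (median 1158) at day 1, against 1389 to 1737 (median 1535) in controls. Kainate laboratory B had 1487 to 1900 (median 1735) at day 1, against 2073 to 2573 (median 2172) in controls. All 12 kainate day 1 rats lay below every control of their laboratory. Rgs7 fell by 0.38 ± 0.06, or 1.3-fold (adjusted p = 4.04e-06), with -0.38 ± 0.09 in laboratory A and -0.37 ± 0.09 in laboratory B, each called.

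Pilocarpine left the Rgs7 ranges overlapping. Laboratory A ran from 2189 to 3263 (median 2711) at day 1, against 1819 to 2915 (median 2352) in controls. Laboratory B ran from 1581 to 3339 (median 2140) at day 1, against 1753 to 2176 (median 1894) in controls. The change was 0.17 ± 0.12 (adjusted p = 0.315). The change after pilocarpine minus that after kainate was 0.54 ± 0.11 and passed the test (adjusted p = 0.00208, with 3.63% of all genes called). Over the 9 model differences tested for each of the 9 members, at days 1, 3 and 10, it was the only call.

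In SSSE, Rgs7 signals at day 1 were 1209, 1092, 1025, 1184, 1027 and 1522 in rats 1 to 6, against 1462, 1457, 1527, 1289.6 and 1311 in controls. Rats 1 to 5 lay below all controls and rat 6 did not. The SSSE change of -0.27 ± 0.09 missed the threshold (adjusted p = 0.0679) and passed it without rat 6 (-0.34, adjusted p = 0.00676) and after quantile normalization (-0.39, adjusted p = 0.0322). Day 10 minus day 1 in SSSE was 0.39 ± 0.10 (adjusted p = 0.0317, with 5.85% of all genes called). After kainate, day 3 minus day 1 was 0.26 ± 0.06 (adjusted p = 0.00106) and day 10 minus day 1 was 0.32 ± 0.06 (adjusted p = 0.000102). At pilocarpine day 10 Rgs7 stood at 0.26 ± 0.12 (adjusted p = 0.177), with 9 of 12 rats above all controls of their laboratory. It passed there without rats 2 and 5 of laboratory A (0.39, adjusted p = 0.0342) and in the fit over all 28 groups (adjusted p = 0.00998). In laboratory B alone the day 10 change of Rgs7 was 0.50 and passed in the same 2 settings (adjusted p = 0.0362 and 0.000493). It also passed without day 10 rat 4, 5 or 6 of laboratory B (changes from 0.54 to 0.56, adjusted p from 0.0366 to 0.0444).

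Rgs9, known for its striatal isoform that limits dopamine and opioid signalling, had low signals. At kindling stage 5 it rose by 0.21 ± 0.07 (adjusted p = 0.0408). The Rgs9 signal ran from 45.5 to 66.5 (median 52.3) at stage 5 in laboratory A, against 42.2 to 56.3 (median 50.5) in controls, and from 44.9 to 61.7 (median 53.3) in laboratory B, against 27.8 to 51.5 (median 39) in controls. The ranges overlapped, with 5 of 12 stage 5 rats above all controls. The call was lost in the fit over all 28 groups (adjusted p = 0.592) and without any 1 of 14 rats (changes from 0.18 to 0.22, adjusted p from 0.0513 to 0.0911). Those rats were control rats 1, 2, 5 and 6 and stage 5 rats 2, 3 and 5 of laboratory A, and control rats 1, 4, 5 and 6 and stage 5 rats 1, 2 and 5 of laboratory B. Kainate laboratory A had a call at day 1, 0.43 (adjusted p = 0.0235, with 21.6% of all genes called), with signals of 53.7 to 77.9 at day 1, against 37.1 to 49.7 in controls. That call was lost without control rat 6 (0.40, adjusted p = 0.0517) and in the fit over all 28 groups (adjusted p = 0.0532), and over both laboratories the change of Rgs9 was 0.19 ± 0.10 (adjusted p = 0.127). A second Rgs9 probe set exceeded the array's median in 0 of 164 rats, and it called neither rise. It gave 0.12 ± 0.08 at kindling stage 5 (adjusted p = 0.378) and 0.07 ± 0.16 in kainate laboratory A at day 1 (adjusted p = 0.822).

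Rgs12, a large regulator that also carries a PDZ and a Ras-binding region, fell at SSSE day 1. Its signals there were 12.9, 10.6, 17.9, 18.3, 9.99 and 20.1 in rats 1 to 6, against 27.3, 22.9, 30, 43.9 and 24.2 in controls. All 6 day 1 rats lay below all 5 controls, at signals below the lowest array median of 27.9. The change was -0.56 ± 0.12 (adjusted p = 0.00649), and day 10 minus day 1 was 0.55 ± 0.13 (adjusted p = 0.0219). A second Rgs12 probe set exceeded the array's median in 1 of 164 rats, so that it had little room to show a fall. It gave -0.05 ± 0.06 at SSSE day 1 (adjusted p = 0.582). At kainate day 1 the change of Rgs12 was -0.29 ± 0.12 (adjusted p = 0.0461), with 7 of 12 rats below all controls. It was lost in 7 of 12 other settings that kept this probe set, and without any 1 of control rats 1, 2, 3 and 5 of laboratory A and control rats 2, 3, 5 and 6 of laboratory B (changes from -0.26 to -0.29, adjusted p from 0.0515 to 0.0797).

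Rgs14, which in mouse CA2 neurons limits synaptic potentiation, was called in no comparison with controls, and its changes in the 12 comparisons ran from -0.24 ± 0.17 in SSSE at day 1 to 0.21 ± 0.10 at kindling stage 5. Its signal ran from 58.4 to 400 in single rats of all groups, and it exceeded the array's median in all 164 rats. At pilocarpine day 10 the change in laboratory A minus that in laboratory B was 0.96 ± 0.39 (adjusted p = 0.295). In laboratory B at day 10 Rgs14 gave -0.69 in the fit over all 28 groups and passed there (adjusted p = 0.0134). It also passed without day 10 rat 4 (-0.84, adjusted p = 0.0428) or rat 6 (-0.84, adjusted p = 0.0442) of laboratory B. Over the 9 laboratory differences, limma called 0 of the 9 members, and 4 members had an unadjusted p under 0.05 at pilocarpine day 10. The laboratory differences at pilocarpine day 10 include day 10 rats 1, 2 and 3 of laboratory B, which stood near day 1 on the score.

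**Figure D4:**
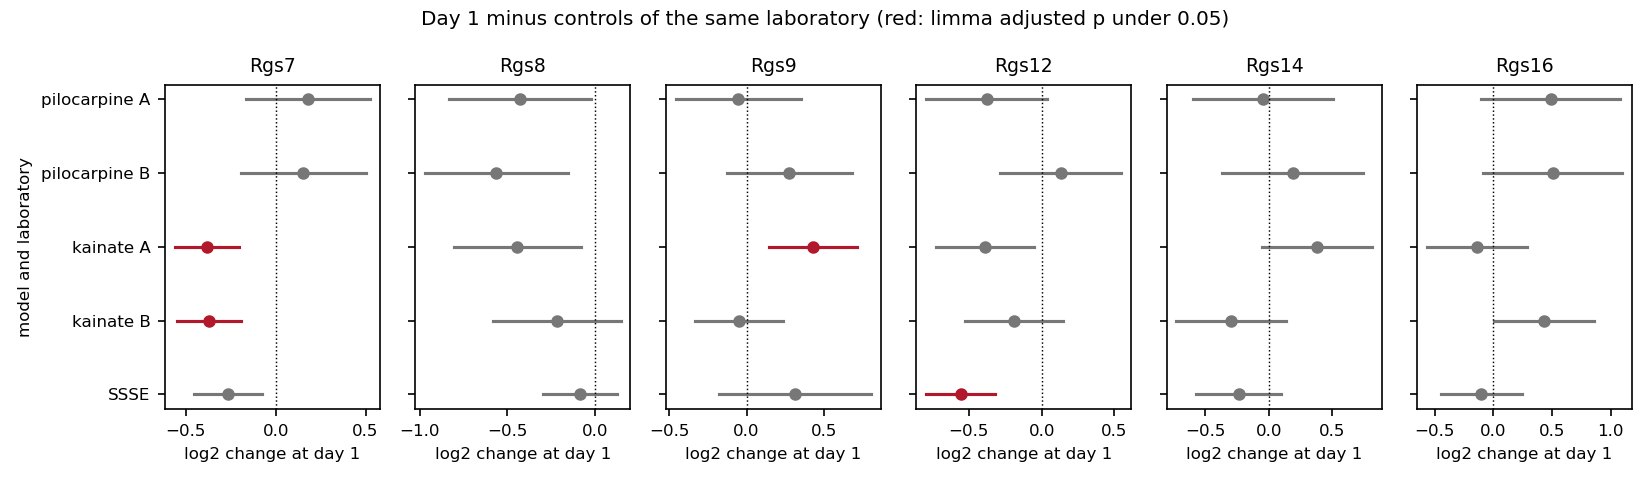
Day 1 change of Rgs7, Rgs8, Rgs9, Rgs12, Rgs14 and Rgs16 by laboratory, as log2 of signal + 16 against same-laboratory controls, with bars of 2 standard errors to either side and red where limma's adjusted p was under 0.05. Rgs7 is below 0 in both kainate laboratories and above 0 in both pilocarpine laboratories, and Rgs12 is called in SSSE.

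Markers of cell types were measured in the same comparisons. Over all genes, 15.8% were called higher and 16.3% lower at pilocarpine day 1, and 22.2% and 19.4% at kainate day 1. In SSSE at day 1, 5.51% were called higher and 7.02% lower. The 9 tested granule cell markers, among them Prox1 and Calb1, all fell at day 1 after pilocarpine (median -0.81) and after kainate (median -0.86), and 3 of the 9 fell in SSSE (median -0.38), against medians over all genes of 0.00, 0.02 and 0.00. Their summed signal with 1 further marker on the array ran from 5398 to 9982 in pilocarpine day 1 rats of both laboratories, against 10010 to 16480 in controls. In kainate rats it ran from 5307 to 7568 at day 1, against 10070 to 13020 in controls, and in SSSE from 7284 to 10600 at day 1, against 10370 to 12500 in controls. Of 11 tested microglia and phagocyte markers 6 rose and 1 fell after pilocarpine at day 1, 5 rose and 1 fell after kainate, and 0 rose and 1 fell in SSSE. The summed signal of the 14 such markers on the array ran from 396 to 856 in pilocarpine laboratory A at day 1, against 321 to 751 in controls, and from 504 to 880.3 in laboratory B at day 1, against 251 to 461 in controls, so that the groups overlapped in A and not in B. It ran from 284 to 600.2 in kainate laboratory A at day 1, against 195 to 598 in controls, from 235 to 519 in laboratory B at day 1, against 322 to 446 in controls, and from 192 to 483 in SSSE at day 1, against 204 to 346 in controls. Single markers differed in level. Itgam, Trem2 and Cx3cr1 exceeded the array's median in 0, 2 and 1 of 164 rats, with control medians of 2.29, 3.85 and 13.9, whereas C1qa, Csf1r and P2ry12 did so in 163, 160 and 126, with control medians of 63.3, 56.2 and 51.5. At day 3, 9 of the 11 microglia and phagocyte markers rose and 0 fell after each drug, and 2 rose and 0 fell in SSSE. Over all genes, 7.74%, 4.66% and 1.66% were called higher at day 3 of pilocarpine, kainate and SSSE. Of the 11, Ptprc and Tyrobp exceeded the array's median in 9 and 12 of 164 rats. Such dim markers may have passed the filter through groups where they were high. Of 10 tested astrocyte markers 2 rose and 6 fell at day 1 after each drug, 1 rose and 5 fell in SSSE, and 5 rose and 0 fell at pilocarpine day 3. The part of these markers in the changes of the RGS genes was not tested.

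G protein alpha subunits of the Gi/o and Gq families are the substrates of the RGS proteins described here. The list of alpha subunits also holds members of other families, among them Gnal. Of 9 tested, 1 rose and 2 fell at pilocarpine day 1 and 4 fell at kainate day 1, while 0 passed in SSSE. Over all genes 32.1%, 41.6% and 12.5% were called at day 1 of pilocarpine, kainate and SSSE. The counts of subunits in this paragraph are thus not by themselves a result about them. Gnal, which couples receptors to adenylyl cyclase, fell by 0.70 ± 0.16 at pilocarpine day 1 (adjusted p = 0.00067) and by 0.94 ± 0.11 at kainate day 1 (adjusted p = 8.53e-10). At kindling stage 5 Gnal rose by 0.26 ± 0.08 (adjusted p = 0.0341). Gnaz, a relative of Gi that resists pertussis toxin, fell by 0.45 ± 0.13 and 0.44 ± 0.10 in the same comparisons. Of 14 beta and gamma subunits, 3 rose and 1 fell at pilocarpine day 1, 4 rose and 2 fell at kainate day 1, and 0 passed in SSSE. The neuronal gamma subunit Gng3 rose by 1.04 ± 0.17 at pilocarpine day 1 and 1.18 ± 0.15 at kainate day 1, and stood at 0.94 ± 0.31 in SSSE (adjusted p = 0.0519). Gngt2, a gamma subunit known from cone photoreceptors, rose by 0.66 ± 0.19 at pilocarpine day 1 and 0.54 ± 0.13 at kainate day 1.

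Effectors of G proteins were called lower more often than higher. Of 12 tested, 4 fell and 0 rose at pilocarpine day 1, 7 fell and 1 rose at kainate day 1, and 1 fell at SSSE day 1 and at kindling stage 5. Adcy8, a calcium-activated adenylyl cyclase, was called lower at day 1 after pilocarpine (-0.92 ± 0.25), kainate (-1.04 ± 0.19) and SSSE (-1.33 ± 0.29) and at kindling stage 5 (-0.80 ± 0.22). Kcnj6, a potassium channel opened by beta and gamma subunits, fell by 0.34 ± 0.09 after pilocarpine and 0.22 ± 0.08 after kainate. Among 19 receptors coupled to Gi/o or Gq, 2 rose and 7 fell at pilocarpine day 1, 2 rose and 11 fell at kainate day 1, and 2 rose and 3 fell in SSSE. The neuropeptide Y receptor Npy1r was called lower at day 1 after pilocarpine (-1.73 ± 0.20), kainate (-1.04 ± 0.17) and SSSE (-0.92 ± 0.27) and at kindling stage 5 (-0.26 ± 0.07), while the nociceptin receptor Oprl1 rose by 1.22 ± 0.24 after pilocarpine and 1.53 ± 0.18 after kainate. These counts stand beside 32.1%, 41.6% and 12.5% of all genes called at day 1 of pilocarpine, kainate and SSSE. Called lower there were 16.3%, 19.4% and 7.02% of all genes, and called higher 15.8%, 22.2% and 5.51%. At kindling stage 5, 3.87% of all genes were called lower and 3.23% higher.

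Other brakes on G protein signalling include receptor kinases and arrestins. Of 8 tested, 2 rose and 0 fell at pilocarpine day 1, where 32.1% of all genes were called, and 3 rose and 1 fell at kainate day 1, where 41.6% were called, with 0 called in SSSE. The arrestin Arrb1 rose by 0.65 ± 0.15 after pilocarpine and 0.72 ± 0.09 after kainate, and the receptor kinase Grk6 by 0.42 ± 0.13 and 0.27 ± 0.11. Of 9 further RGS and RGS-like genes that were tested, 0 rose and 2 fell at pilocarpine day 1 and 2 rose and 4 fell at kainate day 1, with 0 called in SSSE or at kindling stage 5. Rgs7bp, the membrane anchor of the R7 family, fell by 0.46 ± 0.16 at pilocarpine day 1 (adjusted p = 0.0234) and by 0.69 ± 0.12 at kainate day 1 (adjusted p = 3.64e-06). Akap10, an anchor of protein kinase A with RGS-like domains, fell by 0.32 ± 0.10 and 0.25 ± 0.08 in the same comparisons.

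Over the 21 comparisons of a time or stage with the controls of its laboratory, the changes of Rgs4 and Rgs10 had a Pearson correlation of -0.945 and those of Rgs4 and Rgs2 one of 0.705. The 3 comparisons of a laboratory share their controls, so these are descriptions with no test. Among all 10761 genes, the changes most like those of Rgs4 were those of Tnip2 (0.967), Stat3 (0.967) and Cd14 (0.951). For Rgs2 they were those of Psma2 (0.902), Slc24a4 (0.901) and Tmed2 (0.898). For Rgs10 they were those of Ppp1r1b (0.945), LOC102547703 (0.944) and Itpr1 (0.943), and for Rgs8 those of Meox2 (0.867), Pxdc1 (0.844) and Zfp862 (0.832).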

How the data were processed

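RNA of laser-captured dentate granule cells was measured on Affymetrix rat arrays with 31099 probe sets. The deposited values are linear intensity signals made with MAS5, per the submitters' processing notes, and each array's trimmed mean (2% at either end) came to 150.04 to 150.06. Version and further settings of MAS5 are not given in the sources used here. Scaling every array to 1 mean hides a change in total RNA per cell, and array number and background limit the precision of dim genes.

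Here repeat arrays were averaged, 16 was added, and log2 was taken. Probe sets with 1 gene symbol that exceeded the array median in at least 6 rats were kept, the brightest for each gene, leaving 10761 genes. Each model was fitted in limma 3.58.1 (R 4.3.3) with a mean for each group. The 12 comparisons of a time or stage with controls averaged laboratories equally. Further contrasts gave 21 changes within laboratories, 9 laboratory differences, 12 time or stage differences and, in a fit of all 28 groups, 9 model differences. P-values were adjusted by Benjamini and Hochberg over all genes. The fit was tested on simulated data for kainate day 1 only, with independent normal noise in each rat. That simulation held no likeness of same-numbered rats and no split groups, so it does not speak to either.

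Named were all 10 members. Also named were the 3 genes with the most similar changes for each of the 4 members called most often, and from each pathway list 2 of the members called most often, those with the largest change. The members and lists were chosen with earlier results of these data known.

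Rat numbers were checked as pairs: 50 of 164 rats were closest to a rat of their own number in the same laboratory, against 27.2 by chance. The count was 14 of 24 in kainate laboratory A and 9 of 24 in pilocarpine laboratory B, against 4 by chance in each. It was 2 of 24 against 4 in pilocarpine laboratory A and 3 of 20 against 3.22 in SSSE. Same-numbered rats were thus alike in some laboratories, though in none did every pair correlate over 0.1. No label pairs rats, so the main fit has no block, and calls with the rat number as a block are given below. Alternatives changed the added constant, filter, normalization, repeat array, replicate block, samples in the fit, probe set and variance model, and left out rats. Promoters came from RefSeq (GRCr8), and figures were drawn with Python 3.11.15 and matplotlib 3.10.9.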

Additional observations from a re-analysis of the deposited data

Results flagged for a closer look

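Single rats stood apart from their group in 22 of 280 sets of a gene and a group, where chance gives about 5%, or 1 in 20. Rgs4 accounted for 6. SSSE control rat 4 had an Rgs4 signal of 171, with the nearest control at 43.1. SSSE day 3 rat 4 had 1470, with the nearest at 40.9. Kindling laboratory A stage 2 rat 3 had 815, with the nearest at 286. In pilocarpine laboratory A control rat 1 had 533, with the nearest at 132. In pilocarpine laboratory B, day 1 rat 1 was low at 89.1 with the nearest at 982, and day 3 rat 2 was high at 453 with the nearest at 130.

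Rgs8 gave 5, at low signals. Kainate laboratory B had a high day 1 rat 3 at 68.1 (nearest 31.5) and a low day 10 rat 2 at 2.68 (nearest 24.5). Kindling laboratory A had low signals in control rat 5 at 26.1 (nearest 35.5) and stage 4 rat 3 at 28.9 (nearest 38.6). Pilocarpine laboratory B day 3 rat 6 had 49.1 (nearest 23.8).

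Rgs9 stood out in SSSE day 3 rat 4 at 204 (nearest 75), the rat with high Rgs4, in kainate laboratory A day 3 rat 2 at 39.7 (nearest 54.7) and in kainate laboratory B control rat 2 at 48.2 (nearest 55.6). Rgs16 was high in kindling laboratory A stage 5 rat 5 at 106 (nearest 48.8), kindling laboratory B control rat 4 at 55.2 (nearest 34.7) and pilocarpine laboratory A day 1 rat 4 at 126 (nearest 58.7). Rgs14 was low in pilocarpine day 1 rat 1 of laboratory A at 98.2 (nearest 158) and rat 3 of laboratory B at 97.4 (nearest 198). Rgs12 was high in pilocarpine laboratory A control rat 1 at 84.7 (nearest 42.2). Rgs10 was low in kindling laboratory B stage 2 rat 3 at 2550 (nearest 2990), and Rgs5 in SSSE day 10 rat 3 at 8.67 (nearest 12.5).

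The day 1 change of Rgs7 differed between models, with the pilocarpine change minus the kainate change at 0.543 on the log2 scale by limma's test of the difference. Model and laboratory cannot be told apart there.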

How the results depend on the processing

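No member's call reversed under any setting. Called in every setting tried, and without each rat left out, were the day 1 changes after pilocarpine of Rgs4 (3.21 to 4.67), Rgs2 (0.49 to 0.88), Rgs10 (-0.98 to -0.76) and Rgs8 (-0.78 to -0.24). The same held after kainate for Rgs4 (2.83 to 3.58), Rgs2 (0.69 to 0.90), Rgs10 (-0.90 to -0.87) and Rgs7 (-0.38 to -0.37). These ranges are over the settings that leave out no single rat. After pilocarpine and kainate only control and day 10 rats were left out in turn, and in kindling only control and stage 5 rats, so that day 1, day 3, stage 2 and stage 4 rats stayed in. Members called at pilocarpine day 3 numbered 1, and 0 with first arrays only, 3 in the fit over all 28 groups and 2 without the 4 rats near day 1. At pilocarpine day 10 they numbered 1, and 3 in the fit over all groups, 3 without the 2 rats that stood apart and 0 without the rats near day 1. In the fit over all groups kainate day 10 had 2 in place of 1 and kindling stage 5 had 0 in place of 2. Model differences numbered 1, and 2 after quantile normalization or without the 2 rats that stood apart. The causes were not tested.

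Leaving out these rats, and every SSSE rat, in turn gave 4 to 5 members at pilocarpine day 1, 0 to 1 at day 3, 0 to 2 at day 10, 4 to 6 at kainate day 1, 0 to 2 at kainate day 10, 1 to 4 at SSSE day 1 and 0 to 2 at kindling stage 5. Doing so outside SSSE was chosen after seeing the data.

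With the rat number as a replicate block, 18 calls against controls stood beside 18 without it, 21 beside 19 within laboratories and 14 beside 16 between times. The block gave calls to Rgs16 at pilocarpine day 1 (adjusted p = 0.0311) and to Rgs2 in pilocarpine laboratory B at day 1 (adjusted p = 0.0289) and day 3 (adjusted p = 0.0329), and took that of Rgs12 at kainate day 1 (adjusted p = 0.0569). Between times it took the calls of Rgs7 for SSSE day 10 minus day 1 (adjusted p = 0.0912) and of Rgs16 for kainate day 3 minus day 1 (adjusted p = 0.0526). No label says that rats of 1 number belong together. Without a filter, kainate day 3 minus day 1 was not called for Rgs2 (adjusted p = 0.0519) or Rgs16 (adjusted p = 0.0542), nor kindling stage 5 minus stage 2 for Rgs9 (adjusted p = 0.0568). By the second probe set the day 1 change of Rgs2 in kainate laboratory A was 0.41 (adjusted p = 0.353).

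Of 1182 values called in neither fit, 28 changed sign. Signals near the array median limit Rgs5, Rgs8, Rgs9, Rgs12 and Rgs16, and repeat arrays of 8 rats differed from the first by a median of -0.41 in Rgs2, -0.05 in Rgs4 and 0.13 in Rgs10 (log2).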
